A study of Mus musculus with 10 samples.

Results

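The probes described here are 84 of the 23473 probes on a mouse expression chip. They were the probes whose intensity was at least 1.4 times higher with GMT than with GMT/miR-133 at day 3, at day 7 and at day 18. GMT is the set of cardiac transcription factors Gata4, Mef2c and Tbx5, which turn part of a fibroblast culture into induced cardiomyocyte-like cells (iCMs), and miR-133 is a microRNA abundant in muscle. The ratios were taken in the value table the authors deposited, a linear intensity with a median of about 25 on each array. Empty cells and values under 25 were set to 25. A probe therefore needed an intensity of at least 35 with GMT at all 3 days to be eligible, and 8692 probes had it. The 84 probes were 0.358% of the chip and 0.966% of the eligible probes.

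No difference below carries a p-value. The difference between GMT and GMT/miR-133, repeated at 3 days, chose the probes and is therefore given as a description. The other comparisons set 1 array against 1 array, or 1 array against the 3 first-round arrays of an arm. The only condition with a second array was GMT/miR-133 at day 7. The groups used were untreated mouse embryonic fibroblasts (MEF), untreated mouse heart tissue, and iCMs made from MEF. The iCMs were transduced by pMx retrovirus with GMT alone, or with GMT while a synthetic mimic of mature miR-133a was transfected, and were sorted for GFP under the cardiac α-MHC promoter at day 3, 7 or 18. These 6 iCM arrays chose the probes. A later round held 2 more arrays at day 7, which took no part in the choice: GMT/miR-133/Snai1 and a second GMT/miR-133 array, called the control of the Snai1 array here. The control array is labelled GMT/miR-133 by title and treatment, but its description names GMT alone. The sorted gate holds only GFP-positive cells, while MEF and heart were unsorted, and the strain and age of the animals are not given in the sources used here.

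Between 20284 and 21682 probes had a value per array. For 4 columns of the value table, those of the first-round iCMs at days 3 and 7, the best match among the scanner files was the file deposited for the other day of the same arm. The choice of probes needs all 3 days and compares the arms within a day, so it is the same whichever deposit has the right days. The days printed below are those of the value table. By the matched files, the columns called day 7 would be of day 3, and those called day 3 of day 7. Setting a later-round array against a first-round day 7 column may therefore also compare different days. By the matched files, both arms of a day were scanned in 1 session and the later pair in a session of its own. The files used here do not pair probes with genes, so probes are given by ID, no gene list could be counted, and the labelled tissue and cell types could not be checked against markers.

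MicroRNAs guide a silencing complex to matching sites in messenger RNAs, which lowers the transcript or its translation, and a change in one target can pass on to further genes. Snai1, a zinc-finger transcription factor that represses epithelial genes and drives epithelial-mesenchymal transition, is a reported target of miR-133 and is active in fibroblasts. In reprogramming, loss of the fibroblast programme and gain of the cardiac programme are followed as separate outcomes. MEF and heart show whether a probe is higher in the fibroblasts or in heart tissue, which does not by itself assign it to a programme. The Snai1 array shows the level of a probe when this target is supplied beside miR-133.

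As the rule requires, all 84 probes were lower with miR-133 at every day, and these values are a description. The ratio of GMT over GMT/miR-133 had a median of 1.83 at day 3 (1.42 to 7.25), 1.72 at day 7 (1.41 to 3.94) and 1.71 at day 18 (1.405 to 7.29). The smallest of the 3 ratios was at least 1.5 at 53 probes and at least 2 at 7 probes. The last probes inside were M300016694 at 1.4095, M200006589 at 1.4086 and M200001751 at 1.4047, and the first outside were M400000179 at 1.3963, M200002899 at 1.3936 and M300012256 at 1.3927. At 12 probes at least 1 of the 3 GMT/miR-133 arrays was at the floor of 25, so the ratio there is a lower bound. M200013848, named here after its values were seen, was at the floor on all 3.

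Among the eligible probes, the 84 were of middling brightness with GMT. Their median intensity with GMT was 202 at day 3, 154 at day 7 and 141 at day 18, against 166, 164 and 152 over the eligible probes. Over all probes the median with GMT was 25, the floor, at each day. With GMT/miR-133 the medians of the 84 probes were 107, 84.9 and 84.5. MEF stood apart from all of these. The median in MEF was 423 for the 84 probes and 140 for the eligible probes, while in heart the medians were alike at 117 and 118.

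The probes were mainly higher in MEF than in heart, a property the rule did not use. In MEF, 62 of the 84 (73.8%) were at least 2-fold above heart, compared with 8.98% of all probes and 19.7% of the eligible probes. In heart, 4 were at least 2-fold above MEF, compared with 5.49% of all probes and 9.04% of the eligible probes. The other 18 lay within 2-fold, and 5 of them were at the floor on both arrays. The median of heart minus MEF was −1.95 (log2) over the 84 probes, −0.29 over the eligible probes and 0 over all probes. In RNA from whole tissue or sorted cells, fewer cells of a type and less RNA per cell cannot be told apart.

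**Figure D1:**
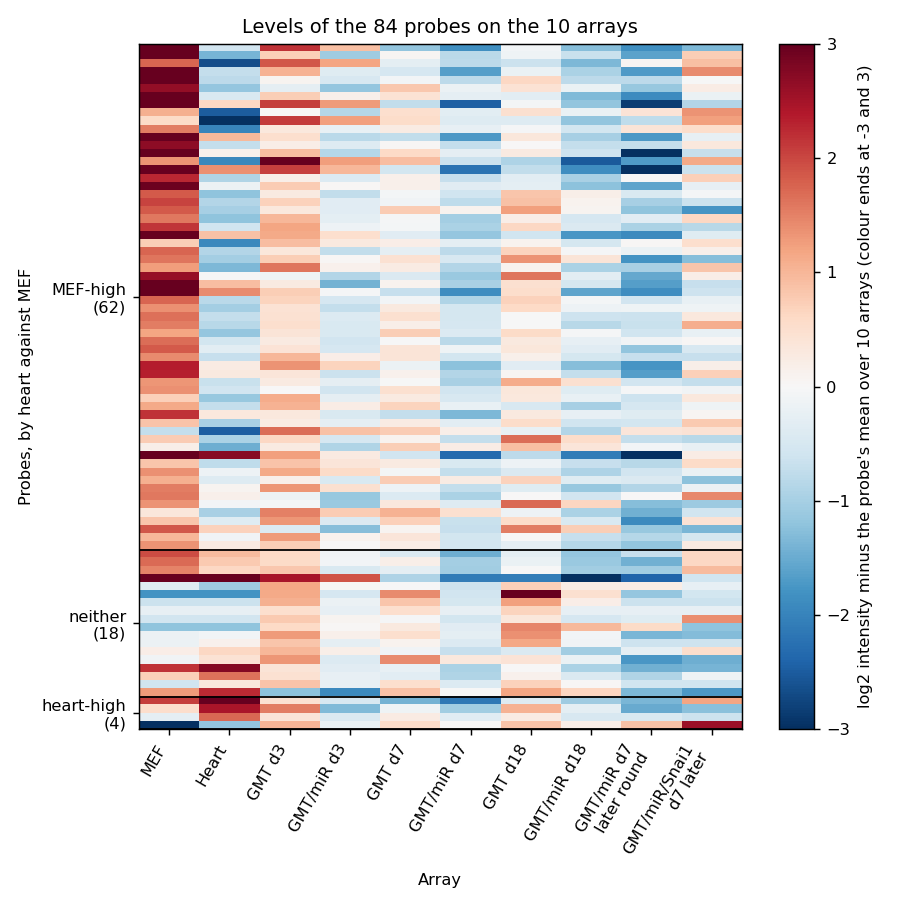
Levels of the 84 probes (rows) on the 10 arrays (columns), as log2 intensity minus the mean of the probe over the 10 arrays, with colour ends at -3 and 3. Rows are grouped by heart against MEF into 62 MEF-high, 18 neither and 4 heart-high probes, and MEF is the highest of the 10 arrays in 47 of the MEF-high rows. The grouping already puts MEF above heart in those rows, and the same share over other probes was not counted.

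The largest differences toward MEF were at M300000112, M400000752, M300016694, M200006244 and M300005162, with heart minus MEF at −5.65, −5.58, −4.40, −4.31 and −3.80 (log2). M300000112 was at 3028 in MEF and 60.1 in heart. With GMT it was at 403, 40.0 and 85.6 at days 3, 7 and 18, and with GMT/miR-133 at 170, 25 and 37.1. It was at 25 on the control array and 35.6 with Snai1. M300000112 thus was highest in MEF and lower on every GMT array, and within each day it was lower with miR-133, as the rule requires. M300005162 was at 349 in MEF and at the floor in heart, so it was at least 14.0-fold higher in MEF.

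The largest differences toward heart were at M200002530, M200000630, M200004035, M300013932 and M200009518, with heart minus MEF at 3.49, 1.99, 1.94, 1.07 and 0.96 (log2). The first 4 are the heart-high probes. M200002530 was at the floor in MEF and at 281 in heart. It was above heart on every iCM array, at 1292, 928 and 1156 with GMT and at 551, 638 and 728 with GMT/miR-133. The control array had 1166 and the Snai1 array 3746, the highest value of this probe. M200000630 moved within a narrow range instead, with 353 in heart and 68.1 to 139 on the 8 iCM arrays.

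MEF was above all 3 GMT arrays at 56 of the 84 probes (66.7%), compared with 12.8% of all probes and 19.1% of the eligible ones, and GMT was above GMT/miR-133 at each day by the rule. Here MEF took no part in the choice, while the GMT and GMT/miR-133 arrays did, so the counts are a description. MEF was at least 2-fold above all 3 GMT arrays at 36 probes (42.9%), compared with 2.50% of all probes and 2.36% of the eligible ones. MEF was at least 2-fold above all 3 GMT/miR-133 arrays at 52 probes, compared with 3.00% and 3.24%. The median difference from MEF was −1.01, −1.31 and −1.14 (log2) with GMT at days 3, 7 and 18, and −1.88, −2.09 and −1.93 with GMT/miR-133. Over the eligible probes these medians were 0.25, 0.25 and 0.11 with GMT, and 0.21, 0.20 and 0.08 with GMT/miR-133. By the matched files, the day 3 columns were scanned in another session than MEF. The iCM arrays share 1 MEF array in these values.

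A small group ran the other way between MEF and GMT. MEF was at least 2-fold below all 3 GMT arrays at 5 probes, compared with 2.18% of all probes and 5.89% of the eligible ones, so this share was near the background. They were M300002557, M200000995, M300013689, M200002530 and M200004673, listed after their values were seen. All were at the floor in MEF. With miR-133 they were lower than with GMT, as the rule requires, and stayed above the floor on the 3 first-round GMT/miR-133 arrays.

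The 10 probes with the largest smallest ratio were, in order, M300002557 at 3.13, M200013648 at 2.98, M200001767 at 2.09, M300001793 at 2.08, M200000995 at 2.05, M200006455 at 2.02, M400007361 at 2.02, M200005324 at 1.99, M300000002 at 1.95 and M200004035 at 1.88. Of these, 7 were MEF-high. M300002557, at the floor in MEF and heart, was at 190, 230 and 882 with GMT at days 3, 7 and 18 and at 60.8, 58.3 and 121 with GMT/miR-133. It was at 38.6 on the control array and 59.6 with Snai1. This probe was thus above the floor on iCM arrays alone. Its control value lay below the 3 first-round GMT/miR-133 values, and its Snai1 value within them.

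M200013648 was at 1250 in MEF and 129 in heart. With GMT it was at 4219, 942 and 259, and with GMT/miR-133 at 1177, 316 and 85.8. The control array had 153 and the Snai1 array 1089. The levels were lower at day 18 than at day 3 in both arms, and the ratios were 3.59, 2.98 and 3.02. M200001767 was the brightest of the 84 probes in MEF, at 17443, with 1924 in heart. It was at 3104, 504 and 446 with GMT, at 1486, 161 and 206 with GMT/miR-133, at 94.4 on the control array and at 475 with Snai1. The Snai1 value lay among those of GMT alone at days 7 and 18.

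M300001793 was at 3381 in MEF and 553 in heart, at 4302, 1679 and 1521 with GMT, and at 1558, 766 and 732 with GMT/miR-133. The control array had 719 and the Snai1 array 2531, so the control lay just below the first-round GMT/miR-133 values. M300000002 was at 7480 in MEF and 2466 in heart, at 874, 246 and 216 with GMT, and at 448, 74.0 and 86.5 with GMT/miR-133. It was at 45.9 on the control array and 429 with Snai1. In both probes the Snai1 array was above the GMT arrays of days 7 and 18.

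**Figure D2:**
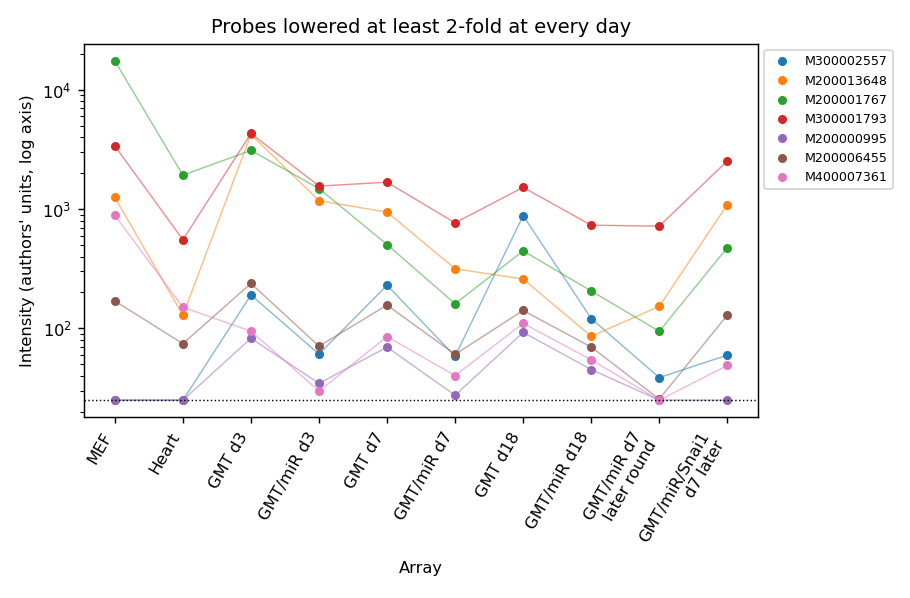
Intensity (authors' units, log axis) of the 7 probes lowered at least 2-fold at every day, on each of the 10 arrays, with 1 point per array and the floor of 25 dotted. M200013648, M200001767 and M300001793 are higher on the Snai1 array than on the control array, at 1089 against 153, 475 against 94.4 and 2531 against 719, while M200000995 is at the floor on both.

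How often a lowering on 2 days was also seen on the remaining day was described by leaving 1 day out. Of 124 probes that met the rule at days 7 and 18, 84 (67.7%) were at least 1.4-fold lower with miR-133 at day 3, compared with 3.58% of all probes and 7.84% of the probes eligible on those 2 days. Of 138 probes that met it at days 3 and 18, 60.9% did so at day 7, compared with 2.62% and 5.72%. Of 198 probes that met it at days 3 and 7, 42.4% did so at day 18, compared with 1.88% and 3.74%. The probes counted are the same 84 each time, since they are those that meet the rule at all days. All 3 days belong to the rule, so these shares describe the days beside each other and are no outside support for the 84. In the other direction, 0, 0 and 3 probes were at least 1.4-fold higher with miR-133 when day 3, 7 or 18 was left out. The background was 1.82%, 1.52% and 1.14% of all probes and 3.94%, 3.03% and 2.14% of the eligible ones, so the 3 of 198 at day 18 (1.52%) lay near it.

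**Figure D3:**
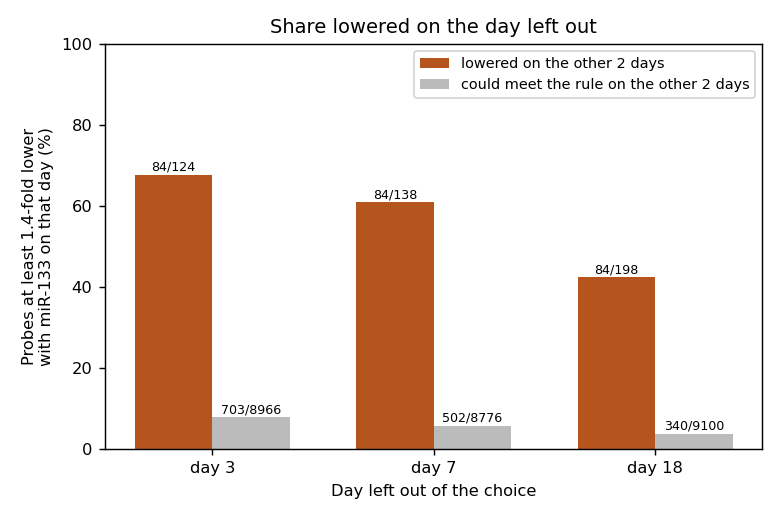
Share of probes (%) at least 1.4-fold lower with miR-133 on a day left out of the choice, for probes lowered on the other 2 days and for the probes eligible on those days, with the counts above the bars. The shares are 67.7%, 60.9% and 42.4% for days 3, 7 and 18, above 7.84%, 5.72% and 3.74%.

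The second GMT/miR-133 array was below all 3 GMT arrays at 71 of the 84 probes (84.5%), compared with 12.2% of all probes and 27.8% of the eligible ones. It was at least 1.4-fold below the day 7 GMT array at 64 probes, compared with 7.73% of all probes and 17.2% of the eligible ones, and at least 1.4-fold above it at 0 probes, compared with 7.08% and 14.7%. The GMT arrays took part in the choice, so these counts favour lower values. For the 138 probes chosen on days 3 and 18, neither array took part, and 95 (68.8%) were at least 1.4-fold lower on the second GMT/miR-133 array than with GMT at day 7. The eligible probes of those 2 days gave 17.1%. In the other direction there was 1 such probe (0.725%), against 14.8%. The day of that GMT array is unsettled, as given above.

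Against the first-round GMT/miR-133 arrays, the control array was below all 3 at 38 probes (45.2%), compared with 10.1% of all and 22.7% of the eligible probes. It was within their range at 37 (44.0%), compared with 72.8% and 40.3%, and above all 3 at 9 (10.7%), compared with 17.1% and 37.0%. The probes were chosen to be low on those 3 arrays against GMT. It was at least 1.4-fold below the first day 7 GMT/miR-133 array at 25 probes, compared with 6.42% of all and 14.4% of the eligible probes, and above it at 15, compared with 8.03% and 17.1%. At 19 probes it was at the floor. Its description as GMT alone is set beside these values. The 2 arrays labelled alike differed in round and scan session, and by the matched file in day, which cannot be told apart from the cells themselves.

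Set against MEF, both later-round arrays were low over the 84 probes, and neither they nor MEF took part in the choice. The control array was at least 2-fold below MEF at 69 probes (82.1%), compared with 5.15% of all probes and 7.92% of the eligible ones, with a median of −2.25 (log2). The Snai1 array was at least 2-fold below MEF at 54 probes (64.3%), compared with 4.88% and 7.87%, with a median of −1.54. Above MEF by 2-fold were 3 probes on the control array, compared with 7.17% and 17.3%, and 4 on the Snai1 array, compared with 3.34% and 7.90%. These counts share the MEF array. MEF was scanned in another session than the 2 later-round arrays, so scan session and cells cannot be told apart.

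With Snai1 added, most of the probes were higher than on the control array. At least 1.4-fold higher with Snai1 were 48 of 84 probes (57.1%), compared with 3.52% of all probes and 6.81% of the eligible ones. At least 1.4-fold lower were 3 probes (3.57%), compared with 11.5% and 27.0%. At 2-fold, 32 probes were higher (38.1%), compared with 0.890% and 1.69%, and 1 was lower, compared with 3.12% and 7.25%. The median difference was 0.74 (log2), or 1.67-fold, while that of the eligible probes was −0.20. The median was 0.27 for the 198 probes chosen without day 18 and 0 for the 203 chosen with no floor, which are other sets of probes. Over the same 84 probes it was 0.86 with no floor on the values and 0.39 with a floor of 50. By sign alone 67 were higher, compared with 15.3% of all probes and 31.1% of the eligible ones, and 12 were lower, compared with 30.7% and 68.4%. The other 5 were at the floor on both arrays. At 12 of the 48 probes the control was at the floor, so their difference is a lower bound.

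The share passing 1.4-fold upward with Snai1 differed with how the probes were chosen. It was 27.1% of the 203 probes that met the rule with no floor, 43.8% of the 121 with a floor of 10 and 51.9% of the 54 with a floor of 50. It was 38.9% of the 198 probes chosen without day 18 and 85.7% of the 7 probes lowered 2-fold at every day. With the choice kept at the 84 probes, it was 58.3% with no floor on the values and 45.2% with a floor of 50.

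The largest Snai1 differences were at M300000002, M200006244, M200013648, M300013932 and M300003525, at 3.23, 3.12, 2.83, 2.56 and 2.37 (log2). M300000002 was 9.36-fold higher with Snai1 than on the control array. M200006244, at 988 in MEF and 49.7 in heart, was at the floor on the control array and at 218 with Snai1, at least 8.70-fold higher. With GMT it was at 169, 57.8 and 70.9 at days 3, 7 and 18, all below its Snai1 value. M300013932, a heart-high probe at 986 in heart and 468 in MEF, went from 42.6 to 251, and was at 41.7 to 152 with GMT. M300003525 went from 668 to 3444, against 10686 in MEF and 2210 to 2738 with GMT.

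The lowest differences were at M200004673, M300007885, M200009417, M200001751 and M200009518, at −1.77, −0.79, −0.56, −0.46 and −0.37 (log2). The first 3 were the probes lower by at least 1.4-fold. M200004673 was at 85.3 on the control array and at the floor with Snai1, so it was at least 3.41-fold lower. It was also at the floor in MEF and heart and at 45.3 to 159 on the 6 first-round iCM arrays. M300007885, MEF-high at 4087, was at 1451 on the control array and 839 with Snai1. M200009417, MEF-high at 3339, was at 404 and 275. With normexp background correction and quantile normalization of the scanner files, M300007885 and M200009417 were at −0.39 and −0.31, short of 1.4-fold.

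**Figure D4:**
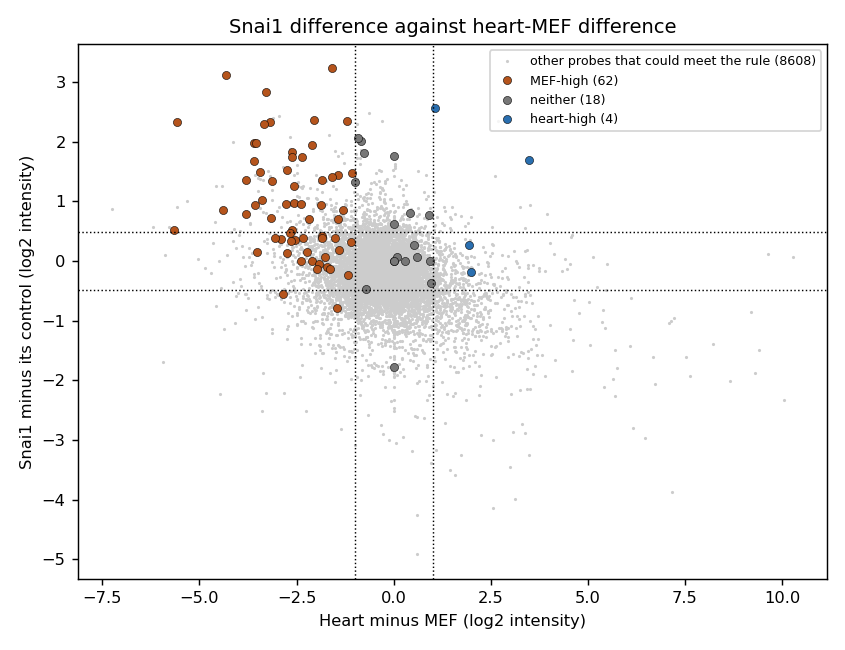
Each probe by heart minus MEF (x axis, log2 intensity) and by Snai1 minus its control (y axis, log2 intensity), with the 84 probes coloured by class over the other 8608 eligible probes in grey; dotted lines mark 2-fold and 1.4-fold. The 62 MEF-high probes lie at the left and 38 of them are above the upper 1.4-fold line.

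The Snai1 difference was described within the MEF-high class, since that class holds most of the probes. Of the 62 MEF-high probes, 38 (61.3%) exceeded the control by 1.4-fold or more with Snai1, and 2 fell short of it by as much. Among the 1650 other eligible probes at least 2-fold higher in MEF than in heart, 12.1% were higher and 24.5% lower. Their median was −0.14 (log2), compared with 0.86 for the 62. Of the 22 members that were not MEF-high, 10 (45.5%) were higher with Snai1 and 1 was lower. Among the other 6958 eligible probes that were not MEF-high, 4.96% were higher and 27.9% lower. So the counts differed between the 84 probes and the remaining probes in both classes of heart against MEF. The class is a 2-fold cut and does not match the probes in how MEF-high they were. Median heart minus MEF was −2.55 (log2) for the 62 and −1.45 for the 1650 others, and their median intensities in MEF were 627 and 270.

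**Figure D5:**
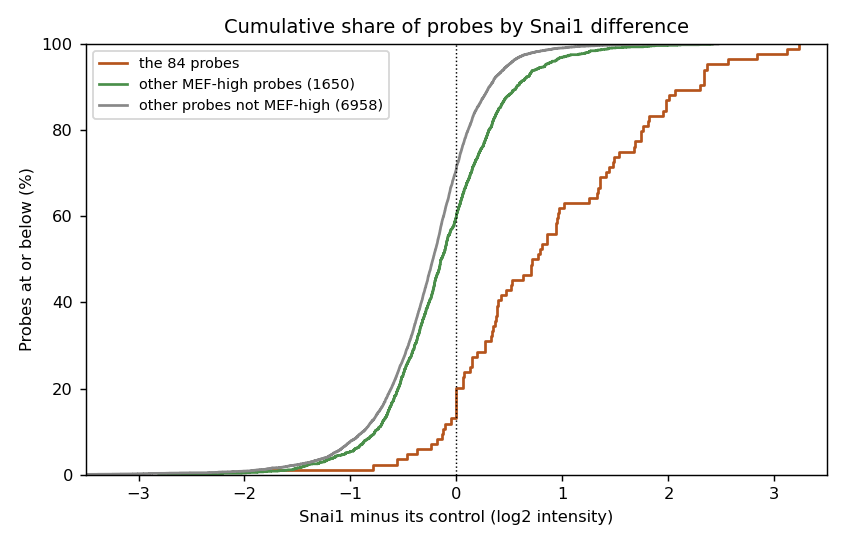
Cumulative share of probes (%) by Snai1 minus its control (log2 intensity), for the 84 probes, for the 1650 other MEF-high eligible probes and for the 6958 other eligible probes that were not MEF-high. The curve of the 84 probes lies to the right, with a median of 0.74 against −0.14 and −0.22.

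Against the first day 7 GMT/miR-133 array, which helped to choose the probes and was of another round, the Snai1 array was 1.4-fold or more higher at 47 probes, compared with 5.58% of all and 10.8% of the eligible probes. Lower were 10, compared with 11.8% and 27.7%. By its matched file the first day 7 array is of day 3, so the day may differ as well as the round. Against both controls 39 probes were higher, compared with 2.11% and 3.51%, and 26 of them by 2-fold, compared with 0.558% and 0.886%. Lower against both were 3, compared with 5.91% and 14.7%. M200012044 and M400010929, named after their values were seen, were higher by 1.4-fold against one control and lower against the other.

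Against the GMT arrays, which the rule required to be above GMT/miR-133, the 84 probes went both ways on the Snai1 array. It was at or above the lowest of the 3 GMT arrays at 47 probes (56.0%), compared with 81.6% of all and 56.1% of the eligible probes. It was above all 3 at 16 (19.0%), compared with 9.42% and 17.9%. Both shares were near those of the eligible probes. The control array was at or above the lowest at 13 probes (15.5%), compared with 87.8% and 72.2%. Over all probes these shares include ties at the floor. Against the day 7 GMT array alone, the Snai1 array was at least 1.4-fold higher at 22 probes, compared with 4.13% of all and 7.54% of the eligible probes, and lower at 33, compared with 13.0% and 30.5%. The median difference was −0.14 (log2) over the 84 probes and −0.22 over the eligible ones. The day of that GMT array is unsettled.

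The 25 probes that met the mirrored rule, at least 1.4-fold higher with miR-133 at every day, went the other way on the later arrays. With Snai1, 22 were at least 1.4-fold lower than on the control array, compared with 11.5% of all probes and 27.0% of the eligible ones. At least 1.4-fold higher were 0, compared with 3.52% and 6.81%. The median was −1.49 (log2), against −0.20 over the eligible probes. In heart 15 were above MEF by 2-fold or more, compared with 5.49% and 9.04%. The eligible probes are those that could meet the rule of the 84, and not all of the 25 are among them. These values are set beside those of the 84 probes with no test of the difference.

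Across days the 84 probes did not move as 1 block. With both arms agreeing, 20 probes (23.8%) were at least 2-fold lower at day 18 than at day 3. The background was 1.22% of all and 2.29% of the eligible probes. Of the 20 probes, 18 were MEF-high, a class that held 62 of the 84 (73.8%). The arrays compared here also chose the probes, so the counts by day are a description. At least 2-fold higher in both arms were 4 probes (4.76%), compared with 1.05% and 1.67%. These were M200002112, M400004210, M400004256 and M200009518, listed after their values were seen. The largest difference toward day 3 with GMT was at M300000003, also singled out afterwards, from 2427 to 102 with GMT and from 1598 to 52.8 with GMT/miR-133. By the matched files, the day 3 columns of the value table were scanned in another session than those of day 18, so the effects of day and of scan session cannot be told apart. By the same files the day 3 columns are of day 7, so the earlier day is itself unsettled.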

How the data were processed

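Per the file headers and the labels' protocols, amplified Cy5-labelled RNA was hybridised to Toray mouse chips and scanned at 1 colour, 1 array per sample. The scanner files give unnormalized median spot intensity for 27456 spots, of which 23474 carry probes and 2736 are blank. The deposited value table of the authors holds intensity per probe for the 10 arrays. The sources used here do not give its normalization. Its columns have medians of about 25.

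The rule, ratios and log2 differences were computed from that table with pandas 2.3.3 (Python 3.11.15), after setting empty values and values under 25 to 25. As alternatives, scanner intensities were corrected with normexp on the blank spots (limma 3.58.1, R 4.3.3, offset 50) and quantile-normalized, or reduced by the blank median and scaled. The code of the rule was run on simulated data with a 2-fold lowering planted in brighter probes. That run does not speak to dim probes or to ratios near 1.4. Calls are folds (2 for heart against MEF, 1.4 for Snai1), and no test was run, since the arm difference over the 3 days chose the probes. The other comparisons set 1 array against 1, or against the 3 first-round arrays of an arm, which took part in the choice.

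The members and lists were chosen with earlier results of these data known. Probes were named by rank: the 10 largest smallest ratios, the 5 highest and lowest Snai1 and heart-MEF differences, and 3 on each side of the threshold. The reference gene table held 0 of the probe IDs, so the gene lists and markers were not used.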

Additional observations from a re-analysis of the deposited data

How the results depend on the processing

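The number of probes depended on the threshold and the floor. It was 134, 53 and 7 at thresholds of 1.3, 1.5 and 2, 121 and 54 with floors of 10 and 50, and 203 with no floor, and 124 to 198 when 1 day was left out. It was 35 with normexp and quantile normalization of the scanner files, all 35 among the 84, 73 with blank-median subtraction, 65 of them shared, and 95 with the later control array as day 7, 64 of them shared. The share at least 2-fold higher in MEF than in heart was 65.7% to 66.9% and the median −1.84 to −1.62 when the choice left out 1 day. The median was −2.56 for the 7 probes chosen at 2-fold. The share was 49.8% and the median −1.0 for probes chosen with no floor, and 48.8% of the 84 passed 4-fold. With no floor on the values of the 84, 83 could be compared, and the share was 74.7% with a median of −2.09. Among all alternatives tried for heart against MEF, no median changed sign. The share higher with Snai1 was 38.1% at 2-fold, 45.2% with a floor of 50, and 85.7% for probes chosen at 2-fold, with a median of 1.82. It was 38.9% to 53.6% when the choice left out 1 day, with medians of 0.27 to 0.53. For probes chosen with a floor of 10 it was 43.8% with a median of 0.36, and for those chosen with no floor 27.1% with a median of 0. For the same 84 probes with no floor on the values it was 58.3% with a median of 0.86. Centring on the eligible probes, whose median Snai1 difference was −0.20, gave 69.0%, an alternative chosen after seeing the data, as were all other choices of probes by another floor or processing. No paired analysis was possible for a comparison outside the choice because each sets 1 array against 1, and a fit of the arms paired by day would test the difference that chose the probes. The number of arrays, and the floor for dim probes, limit the precision of every value. The labels of the control array and the days of 4 columns of the value table remain unsettled.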
